A study of Mus musculus with 9 samples.

Results

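Peak intervals that held at least 4 summits were examined in the CUT&RUN lists of 2 transcription factors of the digits, HOXA13 and HOXD13. A peak interval is a continuous stretch of the genome above background, and a summit is a local maximum that the peak caller found inside it. In each of the 6 wild-type (wt) lists, intervals with 4 or more summits were taken, overlapping ones were merged over the lists, and 803 sites that were present as such in at least 2 lists were kept. They were drawn from 3338 stretches with such an interval in at least 1 wt list, and from 138424 merged wt intervals in all. Mitochondrial and unplaced sequence was left out. The sites were selected on the number of summits in the wt lists, and width, height and the lists in which a site was found go with that number, so these values are given as a description with no test.

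CUT&RUN uses an antibody to bring micrococcal nuclease (MNase) to a DNA-binding protein and sequences the fragments that are cut loose. The cells came from distal forelimbs of mouse embryos of the B6CBAF1 strain, the part of the limb bud that forms the hand plate, and each library was made from pooled embryos. Wt embryos at E12.5 gave 3 libraries for HOXA13 and 3 for HOXD13. Another 2 libraries for HOXA13 (E12.5) and 1 for HOXD13 (titled E11.5, although the growth protocol gives 1 collection day for all samples) came from the line II1TDOM 542, in which a copy of the HoxD enhancer II1 with a promoter and a lacZ reporter was inserted into T-DOM, the regulatory domain telomeric to the HoxD cluster. This line descends from 1 founder. Wt HOXD13 replicate 3 was labelled as a reanalysis of an earlier sample. The reporting summary of the study lists longer reads for both wt replicates 3 than for the other wt libraries. The part of read length in the values below was not tested. Peak lists hold no expression values, so the labelled tissue was not checked against marker genes. Replicates were separate libraries, and p-values measure only the spread between them, which may be technical.

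HOXA13 and HOXD13 belong to the most posterior group of HOX homeodomain proteins and are required for the formation of digits and wrist. They recognise an AT-rich motif, which was searched here on both strands as C, then C or T, then any base, then A or G, then TAAA. Binding regions of such factors range from short enhancers with a single maximum to long clusters of occupied DNA and to broad accessible promoters. An interval that carries several summits in a list is a stretch where cut DNA piled up at several neighbouring positions without a return to background between them.

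To show sequence at the main summits, 100 bp are printed for the 6 sites with the highest median summit number over the wt lists. A main summit is the summit of an interval with the highest -log10 p. Each window is centred on the central main summit of the wt lists. Where lists differed in their main summit, as at sites 3 and 4, the window misses the highest summit of some lists. Sequence is the plus strand of GRCm38, the assembly of mm10. Capitals mark matches to the motif. The windows are chr17:39845804-39845903, chr5:109558650-109558749, chr1:162037267-162037366, chr4:106910303-106910402, chr17:87351532-87351631 and chr4:32237664-32237763.
Site 1 (over the 18S rRNA-related Rn18s-rs5): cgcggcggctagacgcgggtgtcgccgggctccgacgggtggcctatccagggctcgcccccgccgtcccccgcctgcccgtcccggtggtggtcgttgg
Site 2 (Crlf2 promoter): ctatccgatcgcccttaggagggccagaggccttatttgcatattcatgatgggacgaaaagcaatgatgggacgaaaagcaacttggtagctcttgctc
Site 3 (intron of Dnm3): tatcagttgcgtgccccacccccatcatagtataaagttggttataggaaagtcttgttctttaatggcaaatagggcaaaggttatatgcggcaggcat
Site 4 (beside the start of Ssbp3): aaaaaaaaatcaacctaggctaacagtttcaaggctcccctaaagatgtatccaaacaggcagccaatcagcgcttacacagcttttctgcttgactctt
Site 5 (intron of Ttc7): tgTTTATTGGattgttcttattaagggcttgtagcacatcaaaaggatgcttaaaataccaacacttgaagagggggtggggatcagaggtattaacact
Site 6 (beside the start of Bach2): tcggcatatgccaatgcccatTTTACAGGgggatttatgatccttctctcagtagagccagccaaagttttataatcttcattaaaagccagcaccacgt

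Sites 5 and 6 held 1 match each in this window, both on the minus strand, and sites 1 to 4 held none. A match in the 100 bp window was found at 201 of the 803 sites (25.03%), against 15.9% of windows of the same length at all other merged wt intervals. This comparison was not matched for height or for the number of lists. Over their whole length the sites held no more matches, at 0.944 per kb. The other merged wt intervals held 0.990 per kb, and those called in all 6 wt lists 0.985 per kb. A further set, chosen after its values were seen, shows sites near Hox and limb genes whose window holds a match. These windows are chr8:92114810-92114909, chr6:52216794-52216893, chr15:102960008-102960107, chr2:74619777-74619876 and chr10:29725433-29725532.
Site 7 (nearest gene Irx5): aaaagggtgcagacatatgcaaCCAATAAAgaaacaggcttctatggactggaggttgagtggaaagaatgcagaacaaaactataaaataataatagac
Site 30 (Hoxa7 promoter): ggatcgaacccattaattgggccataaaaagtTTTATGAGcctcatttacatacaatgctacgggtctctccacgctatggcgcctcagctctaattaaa
Site 149 (nearest gene Hoxc11): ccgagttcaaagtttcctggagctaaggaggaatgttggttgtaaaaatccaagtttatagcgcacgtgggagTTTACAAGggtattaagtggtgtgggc
Site 290 (nearest gene Evx2): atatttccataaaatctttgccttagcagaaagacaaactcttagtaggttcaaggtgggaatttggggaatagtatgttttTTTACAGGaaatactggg
Site 621 (nearest gene Rspo3): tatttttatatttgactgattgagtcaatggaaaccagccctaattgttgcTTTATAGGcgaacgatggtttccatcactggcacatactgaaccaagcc

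The match at Irx5 lay on the plus strand and the other 4 on the minus strand. A match describes the letters only.

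The 803 sites lay on 20 chromosomes, with 62 on chromosome 2, 61 on chromosome 3, 7 on the X chromosome and 0 on the Y chromosome. The merged sites had a median width of 1575 bp, with a middle range (25th to 75th percentile) of 1399 to 1782 bp, whereas the median of the other 137621 merged wt intervals was 408 bp. The widest, site 1, covered 4184 bp and the narrowest, site 459 at the start of the ribosomal protein L7-like gene Rpl7l1, covered 977 bp. Most sites were wide in the minimum number of lists: 541 in 2 lists, 171 in 3, 60 in 4, 25 in 5 and 6 in all 6. Some interval, wide or not, was called at 688 sites (85.7%) in all 6 wt lists, at 79 in 5, at 28 in 4, at 5 in 3 and at 3 in 2. Thus the sites were nearly always called, and the lists differed mainly in how many summits they placed there.

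The libraries contributed unequally. An interval with 4 or more summits was found at 556 of the sites in wt HOXA13 replicate 1, at 268 in replicate 2 and at 389 in replicate 3. In wt HOXD13 the numbers were 88, 444 and 251. These are 69.2%, 33.4% and 48.4% of the sites for HOXA13 and 10.96%, 55.3% and 31.3% for HOXD13. The counts overlapped between the antibodies, and the lowest and the second highest both came from HOXD13. The depth recovered from the lists was 55.3, 47.1 and 44.6 M read ends for HOXA13 and 38.5, 59.8 and 36.9 M for HOXD13 (M, mega), so the deepest library of each antibody gave the most sites. Depth did not follow the counts in every case: HOXD13 replicates 1 and 3 had similar depth, but 111 and 489 intervals of 4 or more summits in their whole lists. The part of depth in these numbers was not tested.

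**Figure D1:**
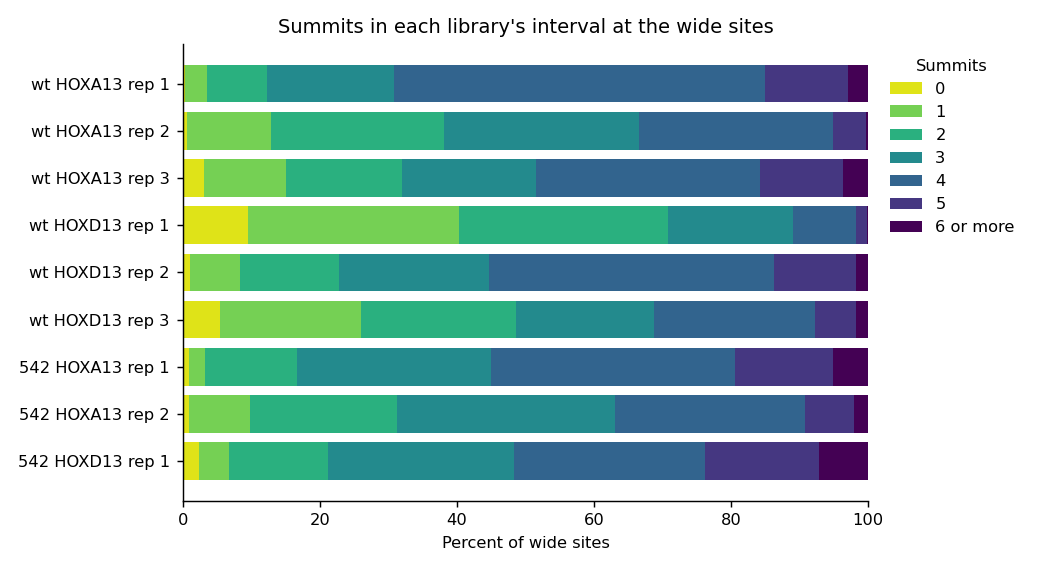
Share of the sites (x axis, percent) by the number of summits in the interval of each library (y axis); colours run from 0 (no interval) to 6 or more. Shares rest on 803 sites in wt and on 775 in 542 libraries. The wt libraries range from 10.96% of sites with 4 or more summits in HOXD13 replicate 1 to 69.2% in HOXA13 replicate 1.

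Most sites were not tied to 1 antibody. An interval with 4 or more summits was present with both antibodies at 593 sites (73.8%), only with HOXA13 at 175 and only with HOXD13 at 35. The pair of lists that most often made up a site of exactly 2 lists was HOXA13 replicate 1 with HOXD13 replicate 2, the deepest libraries, with 165 sites. It was followed by both replicates 3 with 84 sites, by HOXA13 replicates 1 and 3 with 75 and by HOXA13 replicates 1 and 2 with 61. Lists of the same antibody were therefore not the most frequent partners. Both replicates 3 also had the shortest summit spacing and the least agreement in summit positions with the other libraries. Without them, 489 sites were found, of which 390 (79.8%) were wide with both antibodies, 86 only with HOXA13 and 13 only with HOXD13.

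Values just inside and just outside the threshold were close. The 358 sites with exactly 4 summits in exactly 2 lists had a median merged width of 1440.5 bp, and 296 of them (82.7%) were called in all 6 wt lists. Just outside, 1228 stretches had 4 summits in 1 list and at most 3 in the next. Their median width was 1284 bp, and 915 (74.5%) were called in all 6 lists. The native II1 enhancer of the HoxD locus was such a near neighbour, with 3 summits in the interval of each of the 6 wt lists and widths of 1529 to 1712 bp, and so it is not among the sites.

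Neighbouring summits inside the wide intervals kept similar distances in all libraries. The median distance was 315, 306 and 280 bp in wt HOXA13 replicates 1, 2 and 3, and 292, 313 and 286 bp in wt HOXD13. In the 542 libraries it was 311 and 313 bp for HOXA13 and 321.5 bp for HOXD13. Between 69.3% and 82.1% of the distances in a wt library lay from 200 to 400 bp, and the 5th percentile ran from 160 to 211 bp. Both replicates 3 had the shortest medians. In intervals with exactly 2 summits the medians were lower, at 251 to 290 bp over the wt libraries. Each read end had been widened to 200 bp before summits were called, which limits how near to each other summits can be told apart.

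**Figure D2:**
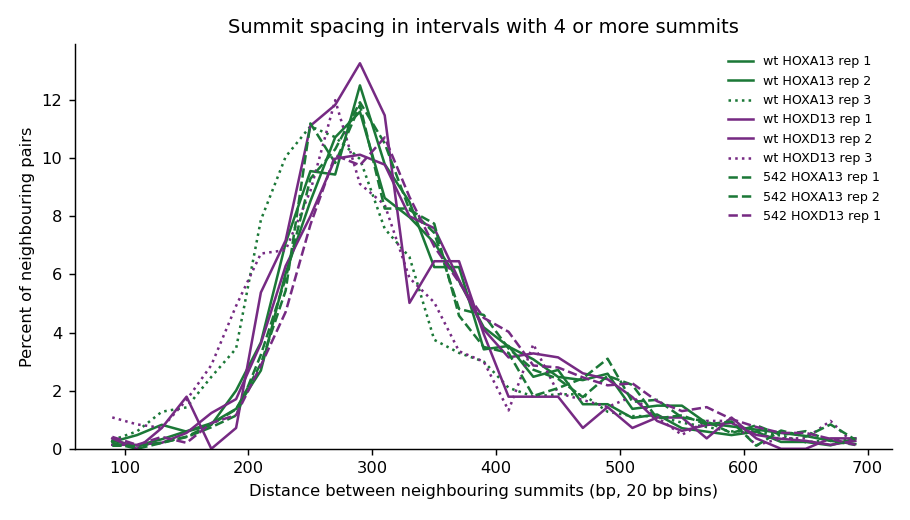
Distances between neighbouring summits (x axis, bp, bins of 20 bp) in the intervals with 4 or more summits, as a percent of neighbouring pairs in each library (y axis). Green lines are HOXA13, purple lines HOXD13; solid lines are wt replicates 1 and 2, dotted lines wt replicates 3 and dashed lines 542. The highest bin starts between 240 and 300 bp in all 9 libraries, and at 240 and 260 bp in the dotted lines.

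The second highest summit of a site was close to the highest, and the lowest was not. The fold enrichment (pileup of read ends over the local background) of the second highest summit was a median of 0.798 to 0.881 of the highest over the wt libraries, and that of the lowest was 0.396 to 0.590 of it. The main summit was the outermost one in 22.1% to 31.5% of the intervals. At the main summits of wide intervals the median fold enrichment was 7.28, 6.55 and 4.81 in wt HOXA13 and 5.63, 6.21 and 4.75 in wt HOXD13. Within the lists this placed the median site between the 83.9th and the 87.4th percentile of all intervals. The sites were thus in the upper part of the lists, but were not their highest intervals. The pileup behind these values was a median of 55 to 123 read ends.

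The first site by summit number stood apart from all others. Site 1, at chr17:39843147-39847330, overlaps the RefSeq gene Rn18s-rs5, which is related to 18S ribosomal RNA, and the GENCODE non-coding genes AY036118, CT010467.1, Gm26917 and Gm42418. It had 8, 5 and 5 summits in wt HOXA13 and 4, 9 and 8 in wt HOXD13. Its fold enrichment was low, from 2.33 to 3.22, although its pileup of 436 to 1767 read ends was far above the median of the sites. In the 542 libraries the pileup was 4159 and 2128 for HOXA13 and 14402 for HOXD13, with fold enrichments of 5.70, 4.61 and 6.68. Its GC content of 66.2% compares with a median of 46.7% over the sites. It was the only site over an rRNA-related gene; copies of such sequence elsewhere in the genome could share its reads, and their part in these values was not tested.

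The next sites held 5 or 6 summits in most libraries. Site 2, at chr5:109556808-109559174, covers the start of Crlf2, a subunit of the receptor for the cytokine TSLP. It had 6, 6 and 4 summits in wt HOXA13, 6, 6 and 5 in wt HOXD13 and 6 in each of the 3 libraries of the 542 line. Its fold enrichments, from 4.30 to 5.60 in wt, were below the medians of the sites in 5 of the 6 libraries. Site 3, at chr1:162035837-162038310, lies in an intron of Dnm3, a dynamin that pinches off membrane vesicles. It had 5, 5 and 6 summits in wt HOXA13 and 4, 5 and 6 in wt HOXD13. Neither site held a match to the motif in its whole length.

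Site 4, at chr4:106909412-106911120, was the most uniform of these. Its central main summit lay 1117 bp from the start of Ssbp3, a cofactor of LIM-homeodomain complexes, and the site had 5 summits in each of the 6 wt lists. The highest summit differed between the lists. From the first base of the site, it lay at 1521, 1524 and 607 bp in HOXA13 and at 1517, 941 and 906 bp in HOXD13. The central one, at 941 bp, was thus the highest only in HOXD13 replicate 2. Counted from the first base of site 4, the summits of HOXA13 replicate 1 lay at 351, 610, 954, 1286 and 1521 bp and those of HOXD13 replicate 2 at 334, 613, 941, 1229 and 1521 bp. Those of HOXD13 replicate 1, a much shallower library, lay at 374, 593, 960, 1249 and 1517 bp. The positions thus agreed to within 60 bp between these libraries. HOXA13 replicate 3 placed its summits at 81, 354, 607, 930 and 1523 bp, the first of them where the other wt lists had none. Fold enrichments were 7.34, 6.02 and 5.42 in wt HOXA13 and 5.20, 6.72 and 4.80 in wt HOXD13, from main pileups of 53 (95% interval 39.7 to 69.3, exact Poisson) to 236 (207 to 268). Such intervals cover counting error only and treat read ends as independent. Both ends of a short fragment can enter 1 pileup and duplicates may have been kept, so these error ranges may be too narrow.

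**Figure D3:**
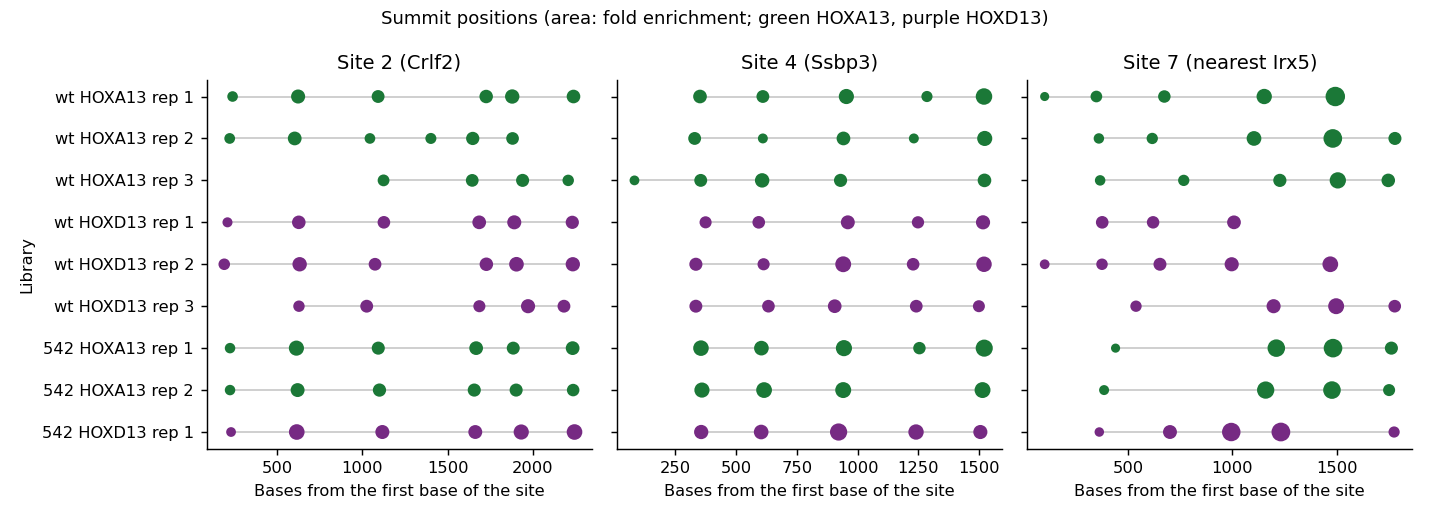
Summit positions in sites 2, 4 and 7 (x axis, bases from the first base of the merged site) in each of the 9 libraries (y axis). Points are summits, with an area that follows fold enrichment, in green for HOXA13 and purple for HOXD13; grey lines join summits of 1 interval. Site 4 has 5 summits in every wt library, and site 2 has between 4 and 6.

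Site 5, at chr17:87350822-87353021, lies in an intron of Ttc7, which encodes a scaffold of a phosphatidylinositol 4-kinase. It had 6, 5 and 3 summits in wt HOXA13 and 5, 6 and 4 in wt HOXD13. Site 6, at chr4:32236636-32239044, had its main summit 1090 bp from the start of Bach2, a transcriptional repressor of the basic leucine zipper class, with 5, 5 and 4 summits in HOXA13 and 3, 6 and 5 in HOXD13. Both held several matches to the motif, 2 and 4 in their full length. Site 8, at chr13:21721491-21723618, covers the histone gene Hist1h2bm and had 4 to 6 summits in 5 wt lists and 1 in HOXD13 replicate 3.

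Further sites among the first 12 lay in introns. Site 10 lay in an intron of Ccdc171 and had 3 to 5 summits. Site 12, in an intron of Ankfn1, had 5, 4 and 6 summits in HOXA13 and 1, 4 and 5 in HOXD13. As a group, the first 12 sites had intervals in all 9 libraries.

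Some sites differed between the antibodies in summit number. The 4 sites with the largest excess in HOXA13 lay away from promoters. Site 231, 100998 bp from the start of the zinc-finger gene Zfp507, had 6, 4 and 5 summits in HOXA13 and 1, 1 and 2 in HOXD13. Site 469, in the non-coding microRNA host gene Mir99ahg, had 6, 3 and 5 against 1, 1 and 2. Site 641, in an intron of Naa15, a subunit of an N-terminal acetyltransferase, had 6, 3 and 4 against 0, 1 and 1. Site 661, in an intron of Palld, which encodes the actin-binding protein palladin, had 5, 3 and 4 against 1, 1 and 0. The groups did not overlap at these sites, as the choice by the largest difference makes likely. In the 542 libraries, which took no part in the choice, site 231 had 2 and 3 summits in HOXA13 and 2 in HOXD13, and site 469 had 2 and 2 against 2. Site 641 had 3 and 4 against 3, and site 661 had 3 and 2 against 5. The excess of the wt HOXA13 lists was thus mostly absent there.

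The 4 sites with the largest excess in HOXD13 lay at or beside start sites. Site 467, over the start of the bromodomain gene Brd2, had 3, 7 and 6 summits in HOXD13 and 2, 2 and 1 in HOXA13. Site 599, beside the antiproliferative gene Tob1, had 1, 8 and 5 against 3, 1 and 1, so its groups overlapped. Site 760, at Atxn7l3, which encodes a subunit of a histone deubiquitinase module, had 2, 4 and 4 against 1, 1 and 0. Site 102, beside the corepressor gene Tbl1x on the X chromosome, had 5, 7 and 3 against 3, 4 and 1, and overlapped too. Their GC content ran high, at 65.8%, 64.1%, 77.7% and 58.3%. In the 542 HOXD13 library, the deepest of all and titled E11.5, sites 467, 599 and 760 had 7, 8 and 4 summits, against 3, 3 and 1 in 542 HOXA13 replicate 1 and 2, 4 and 1 in replicate 2. Site 102 had 5, against 5 and 3.

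A site within 1 kb of a protein-coding start site (at its main summit) was called a promoter site. There were 296 (36.9%), against 11.6% of the other merged wt intervals and 26.5% of the 13203 others that were called in all 6 wt lists. Introns held 27.5% of the sites and 40.7% of the others, and intergenic sequence 34.9% and 43.9%. No site had its main summit in a coding exon, where 2.26% of the others lay. The median distance to a start site was 16282 bp, against 37407 bp for the others, and 198 sites (24.7%) were more than 100 kb away. The ratio of observed to expected CpG had a median of 0.388 at the sites and 0.254 at the others. Without both replicates 3, 43.1% of the 489 sites were promoter sites.

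The promoter sites and the remaining 507 sites were unlike in sequence. The median GC content was 56.3% at promoter sites and 42.6% at the remaining ones, with median CpG ratios of 0.755 and 0.279. The CpG ratio was over 0.6 at 254 of the 296 promoter sites and at 45 of the 507. Matches to the HOX13 motif were rarer in promoter sites, at 0.619 per kb against 1.12 per kb. Their median widths, 1540.5 and 1594 bp, were close. Of the 295 sites that overlapped a protein-coding start site, 47 (15.9%) held start sites on both strands, compared with 7.92% of the other merged intervals over a start site and 12.49% of those called in all 6 lists.

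The libraries saw these kinds of sites differently, and the direction varied between the replicates of each antibody. Promoter sites carried 4 or more summits in 75%, 31.1% and 37.5% of cases in wt HOXA13 replicates 1, 2 and 3, and in 10.1%, 74.0% and 23.3% in wt HOXD13. The remaining sites did so in 65.9%, 34.7% and 54.8% and in 11.4%, 44.4% and 35.9%. Both replicates 3 were thus wide more often away from promoters, and replicate 1 of HOXA13 and replicate 2 of HOXD13 more often at promoters. Since these counts enter the choice of sites, no test was made. Around the nearest start site, 54.6% to 61.0% of the summits of promoter sites lay upstream, with median offsets of -33 to -74 bp, and 29.3% to 37.7% lay within 250 bp of it.

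The genes of the sites were then counted by lists of limb regulators and signals and of other cell types. A gene counted if its body overlapped a site or, where no body did, if its start site was the nearest. This held for 792 of 21911 protein-coding genes (3.61%). Lists of long genes or of genes beside gene deserts meet more sites, so the counts are descriptions with no test. All 10 lists of Hox and limb genes were above that share, from 5.26% for the HoxB and HoxC clusters to 29.0% for distal limb transcription factors. The HoxB and HoxC list (1 of 19) and the HoxD list (1 of 10) rest on 1 gene each, too few to be told from 3.61%. The list of blood and endothelial genes was above it too (7.69%), and the other 3 were at 0.

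Transcription factors of the distal limb had sites at 9 of 31 genes. They were the Iroquois gene Irx5, the dorsal LIM-homeobox gene Lmx1b, Dlx5, Prrx1, the posterior regulator Hand2, the hedgehog effector Gli3, Msx2, Sall3 and Tbx3. Irx5 was nearest to 3 sites, of which site 7, at chr8:92113378-92115376 and 242765 bp away, ranked highest. Site 7 had 5 summits in each wt HOXA13 list and 3, 5 and 4 in wt HOXD13. Its fold enrichments were 10.6, 9.65 and 7.13 in HOXA13 and 4.85, 6.59 and 6.79 in HOXD13, and 9.60 and 8.49 in 542 HOXA13 against 9.77 in 542 HOXD13. The interval of wt HOXD13 replicate 1 ended before the main summit of the other wt lists, so its value belongs to another summit. The 542 HOXD13 value does too: its main summit lay 1233 bp from the first base of the site, against 1483 and 1478 bp in 542 HOXA13. Site 81, 70109 bp from Irx5, had 4, 3 and 4 summits in HOXA13 and 1, 4 and 4 in HOXD13. Site 63, 60952 bp from Lmx1b, had 3, 3 and 4 and then 4, 4 and 4.

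Sites counted for Hox genes lay in the HoxA and HoxC clusters and beside the HoxD cluster. In the HoxA cluster, 2 of 12 genes had one. Site 30 covered the Hoxa7 promoter at chr6:52216202-52217715 with 4, 5 and 5 summits in HOXA13 and 3, 4 and 4 in HOXD13, and its fold enrichments were 7.09, 7.26 and 4.15 against 3.13, 3.66 and 3.42. Site 168 lay in Hoxa11, a gene of the forearm segment, over its antisense transcript Hoxa11os, with 4, 4 and 3 summits against 2, 3 and 4. Hoxc11 was the only gene of the HoxB and HoxC clusters (1 of 19). Its site 149, at chr15:102959609-102960876, was among the highest of the lists, with fold enrichments of 15.6, 14.1 and 9.18 in HOXA13 and 9.92, 12.1 and 7.10 in HOXD13. In the HoxD list, 1 of 10 genes was counted, Evx2, a homeobox gene next to Hoxd13. Its site 290 was intergenic, outside the cluster and 39592 bp from the Evx2 start, and counted because that start was the nearest.

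The landscapes around the HoxD cluster held 9 sites, which were listed after their values were seen. On the centromeric side, in C-DOM, sites 573, 82, 492 and 290 lay towards Atp5g3, Lnpk and Evx2. On the telomeric side, sites 707, 253, 160, 659 and 366 lay between Mtx2 and Hnrnpa3, a gene beyond the far end of T-DOM. Site 290, at chr2:74619193-74620648 and 39592 bp from Evx2, had 3 summits in each wt HOXA13 list and 4, 4 and 3 in HOXD13. Site 160, at chr2:75375613-75377348, had 6, 4 and 4 in HOXA13 and 1, 3 and 2 in HOXD13, with 5 matches to the motif. Of 1515 windows of the same length as the whole landscape that were tiled over the genome and held a wt interval, none held 9 sites. The highest had 8, the median 0, and 984 had none, and with the locus picked after its values were seen this is a description.

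Signalling genes were met at several levels of their pathways. In hedgehog and BMP signalling 5 of 26 genes had sites. Ptch1, the hedgehog receptor and itself a hedgehog target, had site 51 over its promoter, with 5, 3 and 6 summits in HOXA13 and 2, 4 and 4 in HOXD13 and low fold enrichments of 3.25 to 4.14. The BMP receptor gene Bmpr1b was nearest to site 484, with 4, 3 and 6 against 1, 2 and 2 summits, and its fold enrichments were 11.8, 11.1 and 5.00 against 4.46, 5.07 and 3.88. The ligand gene Bmp2 was 183583 bp from site 500, which was wide in both replicates 3 and in no other list, with 2, 2 and 4 and 2, 3 and 4 summits. Gas1, a hedgehog co-receptor, and Id3, a BMP target, were the others.

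In FGF signalling 4 of 16 genes had sites, the receptors Fgfr1 and Fgfr2 and the feedback inhibitors Spry2 and Spred2. Site 76, 96405 bp from Spry2, had 4, 4 and 3 summits in HOXA13 and 2, 4 and 4 in HOXD13. Site 126, in an intron of Fgfr1, had 3, 3 and 4 against 2, 5 and 4. Site 171, in an intron of Spred2, had 3, 4 and 4 against 4, 2 and 3. The antibodies overlapped at these sites.

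In Wnt signalling 3 of 26 genes had sites, the feedback gene Axin2, the agonist Rspo3 and the secreted modulator Sfrp2. Site 20, 29451 bp from Axin2, had 5, 3 and 5 summits in HOXA13 and 3, 4 and 5 in HOXD13. Site 621, 189616 bp from Rspo3, had 2, 2 and 4 and 2, 2 and 4 in wt, and 5, 7 and 6 in the 3 libraries of the 542 line. Site 657, 56213 bp from Sfrp2, had 4, 4 and 2 against 1, 2 and 1 in wt, and 4, 6 and 4 in 542. At site 657 the fold enrichment was 6.23, 5.94 and 5.02 in wt HOXA13 and 10.8 and 10.2 in 542 HOXA13. These 542 values were noticed among the named sites and were not tested.

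Among genes of cartilage and joints 4 of 22 had sites, Sox5, Jag1, Cux1 and Jun. Site 120, 301703 bp from the chondrogenic regulator Sox5, had 4, 1 and 4 against 3, 6 and 3 summits. Site 347, over the start of the Notch ligand gene Jag1, had 4, 3 and 3 against 2, 4 and 3. Site 481, in an intron of the homeobox gene Cux1, was wide in both replicates 3 only, with 2, 2 and 4 and then 2, 3 and 5.

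Genes for guidance and cell sorting had sites at 5 of 23, the ephrin gene Efna5, the Eph receptor genes Epha3 and Epha7, the semaphorin gene Sema3a and its receptor gene Nrp1. Site 73, in an intron of Efna5, had 4, 4 and 5 summits in HOXA13 and 2, 4 and 2 in HOXD13. Site 174, at the Sema3a promoter, had 4, 4 and 4 against 2, 3 and 3 in wt and 5 and 4 against 3 in 542, and its wt fold enrichments were 12.2, 11.02 and 4.26 against 4.80, 8.47 and 4.10. Site 585, near Nrp1, had 4, 1 and 2 against 1, 4 and 3. Among genes of the proximal limb, the T-box gene Tbx18 was nearest to site 546, which had 4, 4 and 2 summits in HOXA13 and 1, 2 and 3 in HOXD13.

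The counts in the lists of other cell types and of ribosomal proteins were too small to be told from the share of 3.61% over all genes. No site was found at 14 genes of the myogenic lineage, at 12 epidermal genes or at 26 ribosomal protein genes. Among 13 blood and endothelial genes, Tek, a receptor of endothelial cells, was nearest to site 777, 422 bp from its start. That site had 5, 1 and 1 summits in HOXA13 and 0, 4 and 1 in HOXD13, and it had no interval in 542 HOXA13 replicate 1 or in 542 HOXD13.

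Whether the lists placed summits at the same bases was compared for each pair of wt libraries. The choice of sites used the number of summits and not their agreement. More summits in a list make a near one likelier, however, so summit number enters these shares. No share for randomly placed summits was set beside them. Within the sites, the percent of summits with a summit of the other library within 50 bp was 72.9% for HOXA13 replicates 1 and 2, and 72.2% for HOXA13 replicate 1 with HOXD13 replicate 2. The pairs without a replicate 3 ranged from 58.4% to 72.9%. The 8 pairs with 1 replicate 3 reached at most 48.9%, and both replicates 3 reached 50.9% with each other. Pairs of the same antibody had a mean of 52.2% ± 12.3 (SD over 6 pairs) and pairs of different antibodies 53.3% ± 11.4 (SD over 9 pairs). The difference of -1.01 percentage points was smaller than the spread between pairs (exact permutation of the antibody labels, one-sided p = 0.5, 0.5 after adjustment for 4 tests, smallest possible 0.1). Pairs share libraries, so these SDs are descriptions.

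Summits of the 6 wt lists within 50 bp of each other were joined into positions. A site had a median of 7 positions, of which a median of 3 were found in at least 3 lists, with at most 8. At 321 sites 4 or more positions were found in at least 3 lists. A position found in all 6 lists existed at 432 sites (53.8%). Positions found in at least 3 lists were a median of 313.75 bp apart, with a middle range of 268 to 415.75 bp. The motif was present in a 50 bp window at 14.3% of 666 positions found in all 6 lists, at 9.75% of 2565 found in at least 3 and at 2.90% of 2103 found in 1. For comparison, 2.59% of all 50 bp windows tiled over the genome held it. Summits chose the sites, so this order is given as a description.

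The motif was next compared between summits of the sites and those of all other intervals of the same list. In 50 bp windows at all summits of the sites it was present in 9.21%, 9.78% and 6.89% in wt HOXA13 and in 9.42%, 8.11% and 6.39% in wt HOXD13. At all other summits it was present in 10.6%, 10.8% and 8.24%, and in 10.7%, 7.401% and 6.83%. Lower values at the sites were seen in 5 wt libraries, all but HOXD13 replicate 2. Averaged over the 6, the log2 ratio was -0.13 (exact sign-flip permutation over 6 libraries, two-sided p = 0.094, 0.33 after adjustment for 4 tests), which did not pass the threshold of 0.05. The choice by summit number enters this ratio. In wt HOXA13 replicate 1, 906 of 3127 summits were main summits at the sites, against 85959 of 123623 elsewhere. Main summits held the motif more often (below), so the ratio over all summits cannot separate sequence from summit number. In the 542 libraries the log2 ratios were -0.44 and -0.35 for HOXA13 and -0.13 for HOXD13.

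The result depended on which summits were compared. Against the other intervals among the 10000 with the highest -log10 p of each list, the mean log2 ratio was -0.46 and all 6 wt libraries were lower (exact sign-flip p = 0.031, the smallest possible). This was over all summits too, so summit number enters it as well. With the main summit of each interval alone, the ratio reversed to 0.32 (exact sign-flip p = 0.0625), with 5 of 6 libraries higher. This was against all other intervals of a list, and the sites lay in its upper part. Height was thus not matched, and main summits at like height were not compared. The main summits of the sites held the motif in 16.3%, 15.0% and 11.3% in HOXA13 and 10.9%, 13.0% and 9.49% in HOXD13. Counted here were the main summits of every interval that overlapped a site, wide or not, 906 to 1044 per wt library. The further summits of the sites held it in 6.30%, 6.24% and 4.71%, and in 7.76%, 5.78% and 4.30%. In each of the 9 libraries the main summits were thus above the further summits of the sites, by at most 2.59 times (wt HOXA13 replicate 1), a comparison chosen after the values were seen. This order was not particular to the sites. At the other intervals, main summits also held the motif more often than all summits together in each of the 9 libraries (12.4% against 10.6% in wt HOXA13 replicate 1).

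**Figure D4:**
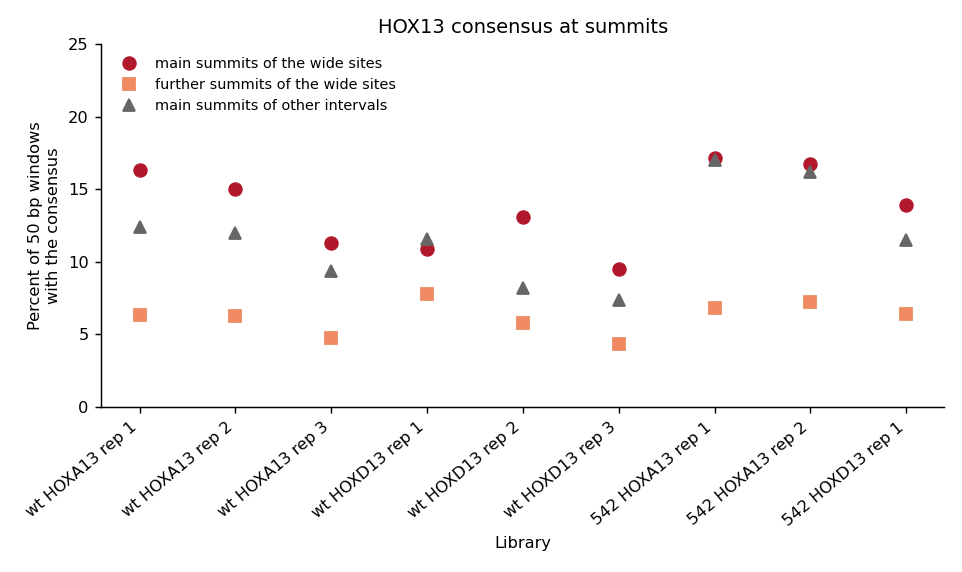
Percent of 50 bp windows with the HOX13 motif (y axis) in each library (x axis). Circles are the main summits and squares the further summits of all intervals, wide or not, that overlap the sites. Triangles are the main summits of all other intervals. Squares lie lowest in all 9 libraries, from 4.30% to 7.76%; circles range from 9.49% to 17.2%. Further summits of other intervals are not drawn.

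The log2 ratio at all summits was -0.20 ± 0.06 (SD, n = 3) for wt HOXA13 and -0.05 ± 0.16 (SD, n = 3) for wt HOXD13. The difference of -0.15 did not exceed what relabelling the replicates gives (exact permutation, two-sided p = 0.2, 0.33 after adjustment for 4 tests, where 3 against 3 cannot go below 0.1). Summit number enters these ratios as well. Away from promoters the motif was more frequent: it was present at 7.54% to 11.7% of summits there and at 4.19% to 7.04% of the summits of promoter sites in wt, and it was higher away from promoters in all 9 libraries.

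The 542 lists, which took no part in the choice, showed how far the sites were found again in other embryos. Chromosome 2 beyond the insertion was left out, since those lists were made on the mutant genome, which left 775 sites. An interval with 4 or more summits was present at 427 (55.1%) in 542 HOXA13 replicate 1, at 286 (36.9%) in replicate 2 and at 401 (51.7%) in 542 HOXD13. Of the other 131492 merged wt intervals, 2.09%, 0.625% and 3.41% met such an interval. The mean difference was 45.9 percentage points, with all 3 libraries in the same direction (exact sign-flip permutation, two-sided p = 0.25, 0.33 after adjustment for 4 tests). With 3 libraries 0.25 is the smallest p, so this design cannot pass the threshold. The other intervals are narrower and many were called in few lists. Among the 12642 that were called in all 6 wt lists the shares were 7.36%, 3.08% and 11.8%, and the mean difference was 40.5 percentage points.

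**Figure D5:**
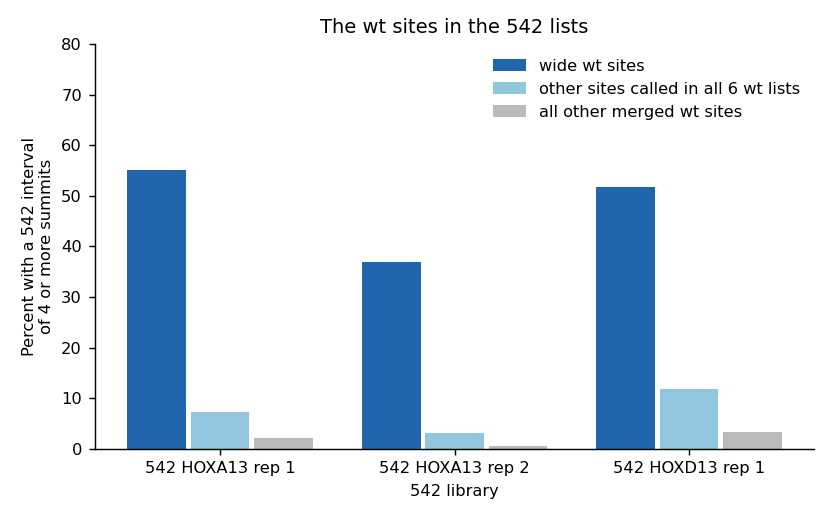
Percent of wt sites that met a 542 interval with 4 or more summits (y axis) in the 3 libraries of the 542 line (x axis), for the 775 sites, the 12642 other sites called in all 6 wt lists and all 131492 other merged wt intervals. The sites reach 36.9% to 55.1%, the other classes at most 11.8%.

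At the level of single sites, 184 of the 775 had 4 or more summits in all 3 libraries of the 542 line and 213 in none. Some interval was called in all 3 at 751 sites, and 1 site had none in any. The mean number of summits per site was 3.72, 2.87 and 3.19 in wt HOXA13 and 1.92, 3.39 and 2.61 in wt HOXD13. The 542 lists held 2805, 1044 and 4339 intervals of 4 or more summits in all, against 111 to 1284 in wt, from 63.9, 44.7 and 65.5 M read ends. The part of depth in the shares at the sites was not tested.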

How the data were processed

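The lists were made by the authors with Cutadapt, bowtie2 (alignments of mapping quality under 30 discarded), Picard and MACS2, per library and with no control. The methods name duplicate removal, whereas the listed commands mark and keep duplicates. The mm10 genome was used for wt and the mutant genome for 542, so chromosome 2 past the insertion (28 sites) was left out for 542. The tools are those in the submitters' processing notes. Read ends, widened to 200 bp, were the units of the pileup. The deposited columns used were the fold enrichment (a ratio of pileup to local background), the −log10 p-value and the −log10 q-value of the authors' Poisson test, and an integer score made from the q-value, which was not used here.

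Rows sharing 1 interval gave its summit number. Pileup was recovered from fold enrichment and −log10 p and came out whole, within 0.01, for at least 99.97% of the summits checked in a library. Depth was recovered from the lowest background, and ranged from 36.9 to 65.5 M read ends. A list without an interval of 4 summits at a site was given its widest overlapping interval, or 0. On simulated data the site search returned 200 of 200 planted sites and 100% of 2000 pileups. Replicates are separate libraries of pooled embryos.

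Genes came from GENCODE basic M21 and RefSeq, and sequence from RefSeq GRCm38.p6. Coordinates are 1-based. The members, gene lists and tests were chosen with earlier results of these data known. Sites named are the 12 with the highest median summit number (ties by number of lists, total summits, width), the 4 with the largest difference between antibodies in each direction, up to 3 per gene list, and the widest and narrowest. Some sites that this rule names are not reported here. Libraries were the units of all 4 tests (exact label permutation or sign-flip), and p-values were adjusted by Benjamini-Hochberg. Alternatives were other summit and list minimums, overlap rules, filters on fold enrichment or q-value, equal list lengths, other windows and comparison sets, the replicate block, and each replicate left out; leaving out both replicates 3 was added after the data were seen. Software was samtools 1.23.1, Python 3.11.15, scipy 1.17.1, numpy 2.4.6, pysam 0.24.0, pandas 2.3.3 and matplotlib 3.10.9.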

Additional observations from a re-analysis of the deposited data

How the results depend on the processing

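The number of sites depended on the thresholds. It was 5417 with 3 or more summits, 103 with 5 or more, 262 for 3 or more lists and 6 for all 6 lists. It was 334 with summits of −log10 q of at least 5 and 2 with a fold enrichment of at least 5. It was 489 without both replicates 3 (chosen after seeing the data), and 473 to 772 with 1 replicate left out, the lowest without wt HOXA13 replicate 1.

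The 542 difference kept its direction under all 8 alternatives, from 39.3 to 52.2 percentage points. The difference in summit positions between pairs of the same and of different antibodies, -1.01 points, changed sign with a tolerance of 20 bp (0.083), with main summits only (0.57), without both replicates 3 (2.94) and under the replicate block (1.70). It ranged from -3.78 to 3.28 with 1 replicate left out, the highest without wt HOXD13 replicate 2. No p fell below 0.2 under these alternatives.

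The mean log2 ratio of the motif was -0.46 against the other intervals of the top 10000 and -0.28 against other intervals without a protein-coding start site (exact sign-flip p = 0.031 for both), and 0.32 with main summits only. Its difference between antibodies became 0.018 with main summits only. Apart from the values with main summits only, these ratios were over all summits, of which a smaller share were main ones at the sites. The part of that mix in these changes was not tested. The value with main summits only was against all other intervals and was not matched for height.

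In summit number over the sites, deviations from the antibody means correlated between libraries of equal number with -0.127, 0.0967 and 0.496, so the numbers were not taken as pairs. HOXA13 replicate 1 was closest to HOXD13 replicate 2 (0.515). With the replicate block the motif ratio was -0.13 (exact sign-flip p = 0.25, the smallest possible) and its difference between antibodies -0.15 (exact sign-flip p = 0.25). With 1 replicate left out these ran from -0.18 to -0.10 and from -0.22 to -0.064. The median pileup at the main summits of 55 to 123 read ends limits the precision of single values. Depth alone did not order the lists: wt HOXD13 replicates 1 and 3, with 38.5 and 36.9 M read ends, had 88 and 251 sites of 4 or more summits.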

Other observations

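Several genes had more than 1 site, counted by gene bodies and nearest start sites and noticed after the values were seen. No share over all genes was set beside these counts, so they are descriptions only. Arid5b, a chromatin regulator of mesenchymal and fat cells, Zfp608, a zinc-finger gene, the DNA repair gene Mgmt and the RNA-binding protein gene Hnrnpa3 had 4 sites each. Eif3h, Irx5, Sesn1, Sulf1, Tgfbr2, Zfhx3 and Zfp521 were among the genes with 3. Sulf1 encodes a sulfatase that edits heparan sulfate and Tgfbr2 a receptor of TGF-beta. The 4 sites of Hnrnpa3 are 4 of the 5 on the telomeric side of HoxD, for which it has the nearest protein-coding start site.

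Replication-dependent histone genes were hosts or neighbours of 12 sites, which named 21 histone genes, since their clusters hold several genes within 1 interval. Neither a share of all histone genes nor a share at the other intervals was set beside these numbers, which are descriptions only. Of neighbouring sites, 6 pairs lay within 10 kb and 32 within 50 kb. Outside the chromosomes used, 2 to 6 intervals with 4 or more summits per list lay on mitochondrial or unplaced sequence.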
